A study of Mus musculus with 3 samples.

Results

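The genes described here are the forkhead box O (FOXO) transcription factor genes Foxo1, Foxo3 and Foxo4, and 7 genes linked to growth arrest and quiescence that FOXO factors are known to induce: Pik3ip1, Ccng2, Txnip, Btg1, Rbl2, Klf2 and Bcl6. They were measured in WR19L, a mouse T-lymphoma cell line from the BALB/c strain. All probe sets whose only gene symbol is 1 of these 10 genes were taken, which gave 23 of the 45101 probe sets on the array and 10 of the 18194 genes with a named probe set. Each of 3 groups was 1 Affymetrix array of total RNA from untreated cells. The first group stably expressed the Q84E mutant of human ATP11A in DKO cells, which were derived from WR19L and are deficient in flippase. The second was DKO cells with stable expression of wild-type human ATP11A, and the third was parental WR19L cells, which carry neither the knockout nor a transgene. ATP11A belongs to the flippases, pumps that carry aminophospholipids across the plasma membrane to its cytosolic side. DKO cells without a transgene were not analysed here, so in each ratio over parental cells the knockout, the transgene and the derivation of the line cannot be told apart. The sources used here do not give the promoter of the transgene or whether each line was 1 clone. The genes were chosen with their levels on these arrays known, so the levels and ratios below are a description and carry no test.

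FOXO factors bind DNA as monomers and switch on genes that hold cells out of the cycle, limit glucose uptake and raise stress resistance. Growth factor and antigen receptor signals act through PI3K and the kinase AKT, which phosphorylates FOXO proteins and sends them out of the nucleus, so much of their control is on the protein and not on its mRNA. In resting T cells FOXO1 is known for keeping up homing and survival genes such as Klf2 and Il7r, and activation through the T cell receptor lowers both.

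The region before the start of each gene was read from RefSeq, build GRCm38.p6, which held a window of 250 bases before and 50 bases after the start for 9 of the 10 genes, all but Foxo4, and 2 windows for Bcl6. The FOXO core motif, GTAAACA or TGTTTAC on the other strand, was found in 2 of the 9 genes, Txnip and Btg1, against 3.65% of all 32851 windows in that table. It began 121 bases before the start of Txnip and 204 bases before the start of Btg1. The related insulin response element type motif, CAAAACA or TGTTTTG, was found in Ccng2 alone, 16 bases before the start, against 6.28% of windows. The E-box CACGTG, a site of MYC and related factors, was found in Bcl6 alone, 60 bases before the start of its upstream window, against 7.15%. No matches overlapped, and a match is a description of letters and not evidence of binding. The 250 bases before the start of the 3 target genes with a FOXO type motif are shown because their signals are followed below, with the motifs named above in capitals.
Ccng2, chr5:93267323-93267572, plus strand: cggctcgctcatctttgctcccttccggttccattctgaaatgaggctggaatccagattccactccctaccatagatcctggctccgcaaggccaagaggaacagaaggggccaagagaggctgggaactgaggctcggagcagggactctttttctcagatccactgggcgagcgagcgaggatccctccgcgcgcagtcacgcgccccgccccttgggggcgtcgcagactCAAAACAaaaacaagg
Txnip, chr3:96557707-96557956, plus strand: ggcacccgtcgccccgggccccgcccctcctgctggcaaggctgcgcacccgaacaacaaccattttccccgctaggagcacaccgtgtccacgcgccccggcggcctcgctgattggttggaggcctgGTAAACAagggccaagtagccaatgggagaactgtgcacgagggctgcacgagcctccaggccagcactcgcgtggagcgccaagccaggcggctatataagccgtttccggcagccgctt
Btg1, chr10:96616751-96617000, plus strand: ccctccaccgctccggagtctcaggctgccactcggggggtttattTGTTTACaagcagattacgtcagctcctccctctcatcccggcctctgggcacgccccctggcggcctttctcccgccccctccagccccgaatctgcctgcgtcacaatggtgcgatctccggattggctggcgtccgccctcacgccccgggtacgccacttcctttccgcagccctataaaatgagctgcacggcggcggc

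Each array was scaled by the authors to the same trimmed mean, and signals under the 50th percentile of their array were set to that percentile, the floor, which was 55.5 for Q84E, 50.5 for wild-type ATP11A and 50.3 for parental cells. The number of arrays limits the precision: with 1 per group no value has a replicate. As a guide to technical error, the ratios of the 2 brightest probe sets of a gene were set against each other and summarised as an SD of the log2 ratio per probe set. Only pairs above the floor on all arrays and within 2-fold of each other in mean signal entered. The pairs of Txnip, Btg1, Rbl2 and Bcl6 were further apart, so the SD need not hold for them. This SD was 0.17 to 0.19 for pairs with a mean signal from the 75th to the 90th percentile. The brightest probe sets of Foxo1, Foxo3, Ccng2, Txnip, Btg1 and Bcl6 lay there. From the 50th to the 75th, where those of Foxo4, Pik3ip1, Rbl2 and Klf2 lay, the SD was 0.31 to 0.35. Differences between cultures of a line are not covered by it, and in bulk RNA a change in the share of cells that express a gene and a change in RNA per cell cannot be told apart. The mouse Atp11a signal was 244 in Q84E cells, 253 in wild-type ATP11A cells and 478 in parental cells, and these mouse probe sets need not detect the human transgene. Of 7 T cell markers with a named probe set, Cd2, Cd247, Cd3d, Cd3g and Thy1 were above the 75th percentile on every array, while Cd3e and Cd5 lay under the floor on all 3. The summed signal of the 7 was 17231 in Q84E, 12668 in wild-type ATP11A and 18856 in parental cells, so it was lowest in wild-type ATP11A cells, and its part in the ratios was not tested. No marker of B, myeloid, erythroid or stromal cells reached the 75th percentile on any array. The signal of the 3' over the 5' Gapdh control, a measure of RNA quality, was 0.724, 0.720 and 0.721 on the Q84E, wild-type ATP11A and parental arrays.

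By the brightest probe set of each gene, the Q84E array was the highest of the 3 for 9 of the 10 genes, all but Klf2, and 8 genes ran from Q84E over wild-type ATP11A to parental cells in falling order. Foxo1 and Foxo4 were no longer highest on the Q84E array when array medians were made equal. Among the 9607 genes above the floor on all arrays, 44.1% were highest on the Q84E array and 26.3% had that falling order. For Q84E over wild-type ATP11A, 2 genes, Ccng2 and Foxo3, were at least 2-fold higher, against 1.03% of the 11596 genes compared, and none was 2-fold lower, against 0.319%. For wild-type ATP11A over parental cells no gene was 2-fold apart in either direction, against 0.561% of all genes higher and 0.888% lower. For Q84E over parental cells 5 genes were at least 2-fold higher, Ccng2, Foxo3, Txnip, Pik3ip1 and Btg1, against 1.63%, and none was 2-fold lower, against 0.793%. At the smaller size of 1.5-fold, 4 of the 10 genes were higher for Q84E over wild-type ATP11A, against 5.78% of all genes, 2 for wild-type ATP11A over parental, against 3.51%, and 8 for Q84E over parental cells, against 7.36%. None was 1.5-fold lower, against 1.97%, 3.56% and 2.94% of all genes in the same order of comparisons. A ratio above 0 was found for 9 genes for Q84E over wild-type ATP11A, against 58.1% of all genes, for 9 for wild-type ATP11A over parental, against 54.2%, and for all 10 for Q84E over parental cells, against 59.7%. With equal array medians the first of these counts became 8 and the last 9. The median log2 ratio of the 10 genes was 0.40 for Q84E over wild-type ATP11A, 0.44 for wild-type ATP11A over parental and 0.996 for Q84E over parental cells, and that of all genes compared was 0.046, 0.0057 and 0.068. The 3 comparisons share arrays, and the genes were chosen on them, so nothing is read from these counts beyond the values. With array medians made equal, the median of all genes shifted by -0.14 for Q84E over wild-type ATP11A, by -0.0057 for wild-type ATP11A over parental and by -0.14 for Q84E over parental cells. A Q84E ratio between 0 and that size therefore has no settled direction.

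**Figure D1:**
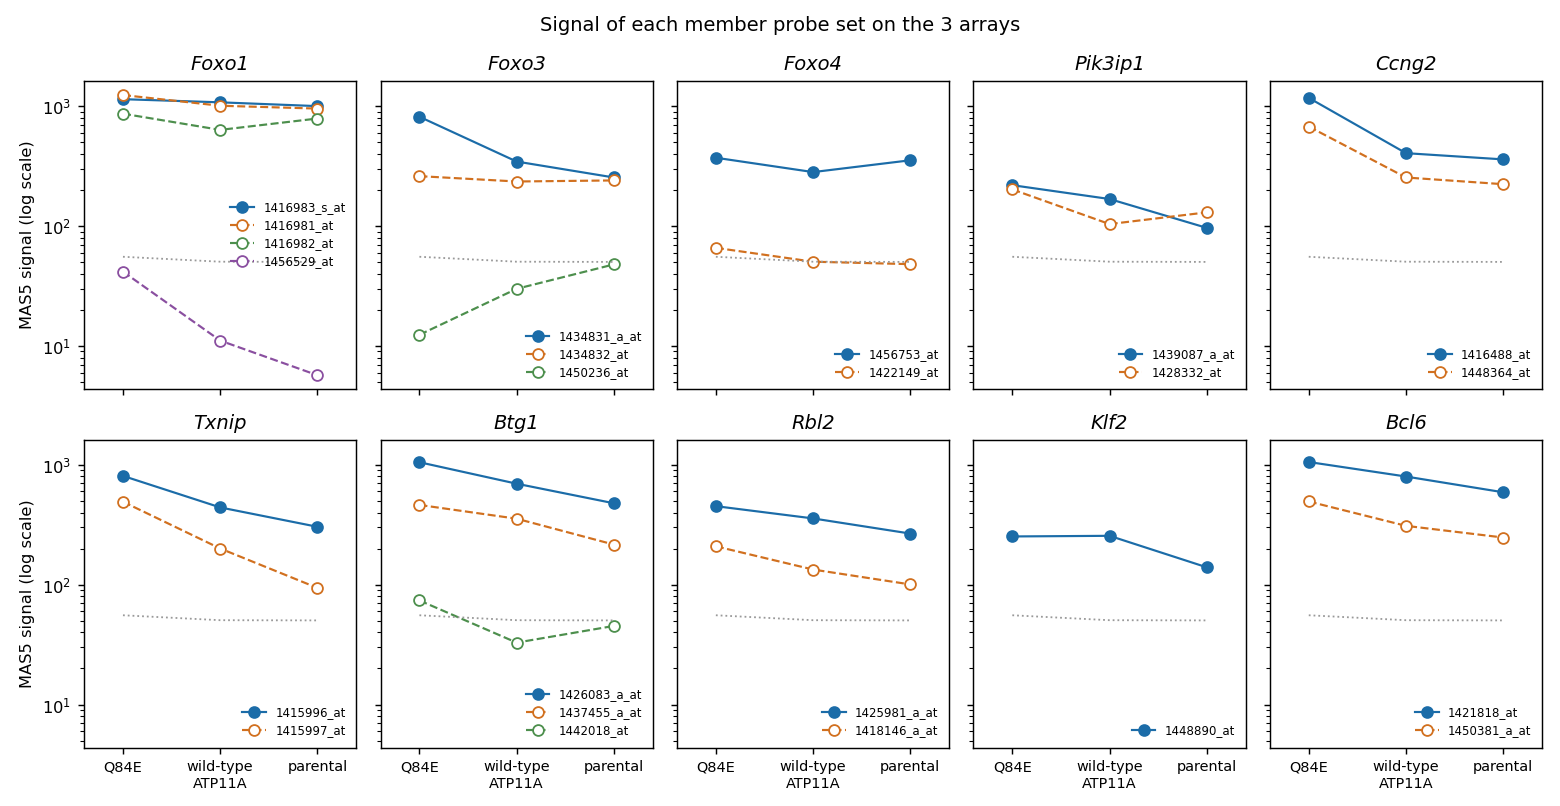
MAS5 signal (log scale) of all 23 probe sets of the 10 genes on the Q84E, wild-type ATP11A and parental arrays. Filled points and full lines are the brightest probe set of a gene, open points and dashed lines the others, and the dotted line is the floor at the 50th percentile of each array; Ccng2 steps up on the Q84E array alone, to 1176 against 407 and 361, while Txnip steps up at each line.

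Foxo3 was the FOXO factor gene furthest apart, but by 1 of its probe sets only. Probe set 1434831_a_at had a signal of 818 in Q84E cells, against 346 in wild-type ATP11A cells and 255 in parental cells, a 2.37-fold higher level for Q84E over wild-type ATP11A and 3.21-fold over parental. Probe set 1434832_at, which the platform annotation pairs with the same source sequence, had 261 in Q84E, 236 in wild-type ATP11A and 241 in parental cells. The first probe set was high on the Q84E array and the second was nearly level over the 3 arrays, at 1.11-fold for Q84E over wild-type ATP11A. The log2 ratios of the 2 probe sets differed by 1.09. The SD per probe set was 0.17 at the level of the first and 0.31 at that of the second, and the SD of a difference is larger than either. The Foxo3 value thus depends on which probe set is read. The third probe set lay under the floor on all arrays.

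Foxo1, the FOXO factor known for holding T cells quiescent, had 3 probe sets above the floor on every array and none past 1.5-fold in any comparison. The brightest, 1416983_s_at, had 1147 in Q84E, 1080 in wild-type ATP11A and 1004 in parental cells. The next, 1416981_at, had 1242 in Q84E, 1011 in wild-type ATP11A and 958 in parental cells, and 1416982_at had 868, 636 and 791 in the same order. Q84E was the highest array in all 3, while wild-type ATP11A and parental cells changed places between probe sets. The log2 ratio of Q84E over wild-type ATP11A was 0.087 by the brightest probe set, 0.30 and 0.45 by the others, and the first turned to -0.050 when array medians were made equal. Foxo4 had 372 in Q84E, 283 in wild-type ATP11A and 355 in parental cells by 1456753_at. Its wild-type ATP11A array was the low one. The log2 ratio of Q84E over wild-type ATP11A was 0.40, little past the probe set SD of 0.31, and that of Q84E over parental cells was 0.070, which became -0.072 with equal array medians and -0.022 with quantile normalization. Its other probe set was above the floor on the Q84E array alone, at 65.9.

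Pik3ip1 encodes a membrane protein that binds PI3K and holds it back, and so acts above AKT and the FOXO factors. Its brightest probe set, 1439087_a_at, had 219.8 in Q84E, 168 in wild-type ATP11A and 96.8 in parental cells. The other, 1428332_at, had 203 in Q84E, 104 in wild-type ATP11A and 130.4 in parental cells. Both were highest in Q84E cells, but they put the step at different places. The brightest was 1.30-fold higher for Q84E over wild-type ATP11A and 1.74-fold higher for wild-type ATP11A over parental, whereas the other was 1.95-fold higher and 1.25-fold lower. For Q84E over parental cells they were 2.27-fold and 1.55-fold higher.

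Ccng2 encodes cyclin G2, an unconventional cyclin that goes with cell cycle arrest and is a direct FOXO target. Probe set 1416488_at had 1176 in Q84E, 407 in wild-type ATP11A and 361 in parental cells. Probe set 1448364_at had 678 in Q84E, 255 in wild-type ATP11A and 224 in parental cells. In both the Q84E array stood apart and the other arrays were close. The ratio of Q84E over wild-type ATP11A was 2.89-fold and 2.66-fold, and that of wild-type ATP11A over parental cells was 1.13-fold and 1.14-fold. The log2 ratios of the 2 probe sets were 0.12, 0.013 and 0.11 apart in the 3 comparisons, within the probe set SD.

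Txnip encodes an alpha-arrestin that binds thioredoxin and lowers glucose uptake by taking glucose transporters off the cell surface. By 1415996_at its signal was 808 in Q84E, 441 in wild-type ATP11A and 304 in parental cells. By 1415997_at it was 492 in Q84E, 200.3 in wild-type ATP11A and 94.0 in parental cells. Both probe sets stepped up at each line, and the dimmer one by more. Q84E over wild-type ATP11A was 1.83-fold by the brighter and 2.46-fold by the dimmer probe set, wild-type ATP11A over parental 1.45-fold and 2.13-fold, and Q84E over parental 2.66-fold and 5.23-fold. That 5.23-fold was the largest ratio of the 21 probe sets past the filter. Txnip is 1 of the 2 genes above whose window held a FOXO core motif.

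Btg1, an antiproliferative gene of the BTG and TOB family that acts through mRNA deadenylation and is high in resting lymphocytes, had 1051 in Q84E, 696 in wild-type ATP11A and 478 in parental cells by 1426083_a_at. By 1437455_a_at it had 463 in Q84E, 355 in wild-type ATP11A and 216 in parental cells. The order of the arrays was the same in both, and Q84E over parental cells was 2.20-fold and 2.14-fold. Q84E over wild-type ATP11A was 1.51-fold and 1.30-fold, and wild-type ATP11A over parental 1.46-fold and 1.64-fold, so the difference was spread over both steps. The third probe set had 73.8 in Q84E cells and lay under the floor in the other lines, so it was at least 1.46-fold higher for Q84E over wild-type ATP11A.

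Rbl2 encodes p130, the retinoblastoma relative that holds the DREAM repressor complex on cell cycle genes in resting cells. Its probe set 1425981_a_at had 452 in Q84E, 357 in wild-type ATP11A and 267 in parental cells, and 1418146_a_at had 209, 134 and 100.5 in the same order. Both had the arrays in the same order, at 1.27-fold and 1.56-fold for Q84E over wild-type ATP11A, and at 1.69-fold and 2.08-fold for Q84E over parental cells. Bcl6, a transcriptional repressor of germinal centre B cells and follicular helper T cells, had 1055 in Q84E, 799 in wild-type ATP11A and 590.1 in parental cells by 1421818_at. By 1450381_a_at it had 494 in Q84E, 309.6 in wild-type ATP11A and 247 in parental cells. The arrays again kept 1 order, and Q84E over parental cells was 1.79-fold and 1.998-fold.

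Klf2, a quiescence factor of T cells that also drives homing receptors, had a different pattern, by its single probe set. Its signal was 253 in Q84E, 256 in wild-type ATP11A and 139.6 in parental cells. Both DKO lines were high and lay within the measurement error of each other, at a log2 ratio of -0.018 for Q84E over wild-type ATP11A, against 0.87 for wild-type ATP11A over parental cells. By brightest probe sets, Klf2 was the furthest apart of the 10 genes for wild-type ATP11A over parental cells, at 1.83-fold, while the dimmer probe set of Txnip was further apart.

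**Figure D2:**
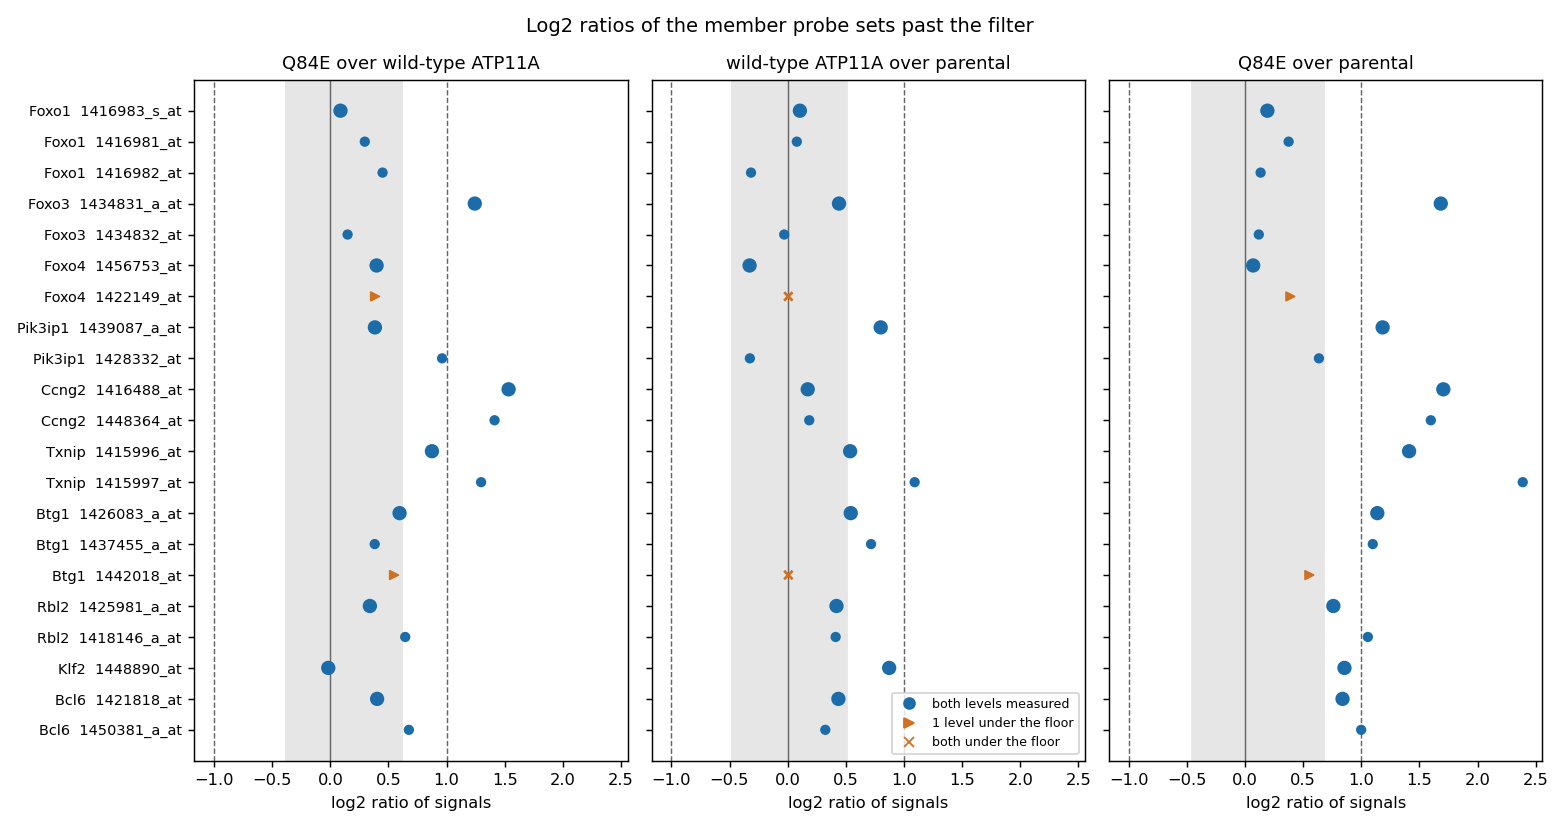
Log2 ratio of signals (horizontal axis) for the 21 member probe sets past the filter in the 3 comparisons. Large points are the brightest probe set of a gene, triangles have 1 level under the floor, crosses have both, dashed lines mark 2-fold and the grey band holds the middle 90% of the genes compared; as scaled by the authors every probe set lies right of 0 for Q84E over parental cells, and those within 0.14 of it do not keep that side with equal array medians.

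The probe sets of a gene did not all give the same ratio, so the choice of probe set was followed through. As scaled by the authors, of the 19 probe sets above the floor on all arrays 18 were highest on the Q84E array, 14 ran in falling order from Q84E over wild-type ATP11A to parental cells, 4 had wild-type ATP11A lowest and 1, that of Klf2, had it highest. These 19 are not independent, since several read the same gene. The shares over all probe sets were not counted. By brightest probe set, 44.1% of the 9607 genes above the floor on all arrays were highest on the Q84E array and 26.3% had that falling order. Averaging all probe sets of a gene put Foxo3 at a log2 ratio of 0.70 for Q84E over wild-type ATP11A and Txnip at 1.08, so that Txnip and not Foxo3 was past 2-fold beside Ccng2. Ccng2 stayed between 1.40 and 1.53 over all 8 settings tried.

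**Figure D3:**
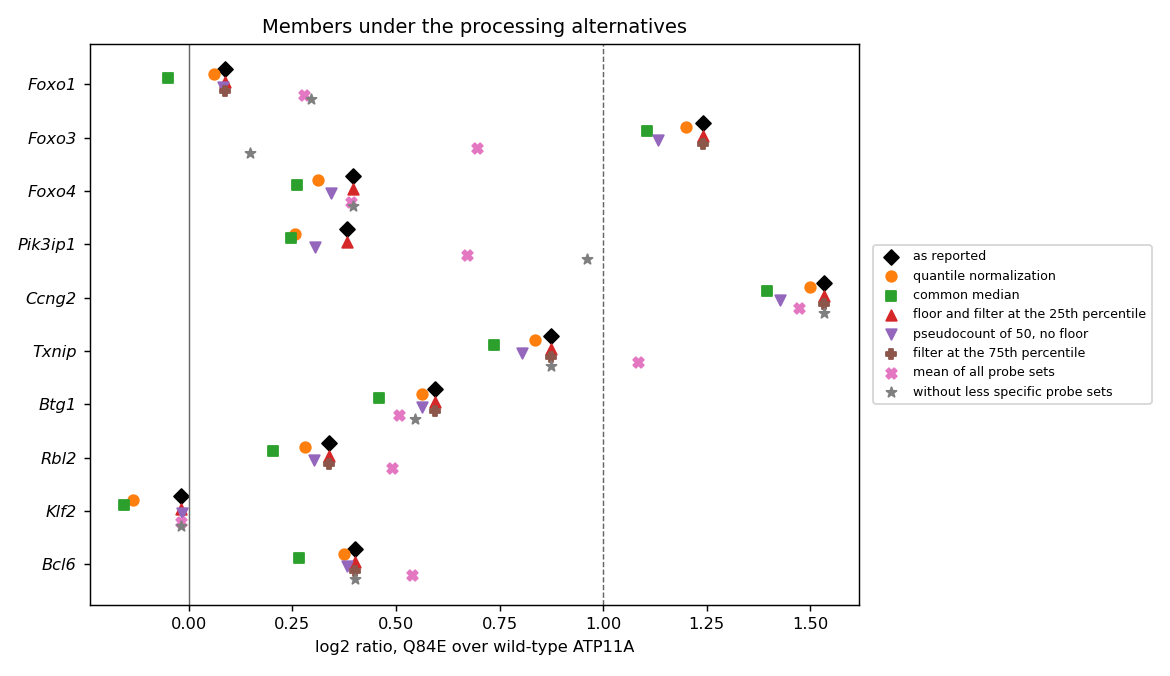
Log2 ratio of Q84E over wild-type ATP11A (horizontal axis) for each of the 10 genes as reported and under 7 processing alternatives, with the dashed line at 2-fold. Ccng2 lies between 1.40 and 1.53 throughout, whereas Foxo3 runs between 0.15 and 1.24 and Pik3ip1 between 0.25 and 0.96; Foxo4, Pik3ip1, Rbl2 and Klf2 have no value under 1 alternative.

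The genes most like Foxo3 and Ccng2 in pattern were found by the Euclidean distance between log2 levels over the 3 arrays, each gene centred on its own mean, among 6892 genes that reached the 75th percentile on at least 1 array. Foxo3 was read by its brightest probe set, and 3 arrays leave many genes alike. Closest to Foxo3 was Ddit4, an inhibitor of mTORC1 signalling, at a distance of 0.18, with 5991 in Q84E, 2261 in wild-type ATP11A and 1562 in parental cells. Next were Dgka, a diacylglycerol kinase of T cells, at 0.19, and Slc2a8, a glucose transporter gene, at 0.20. Dgka had 3215 in Q84E, 1585 in wild-type ATP11A and 979.9 in parental cells. Slc2a8 had 458, 234 and 164 in the same order. Closest to Ccng2 were P2rx3, an ATP-gated cation channel gene, at 0.22, Foxo3 itself at 0.23 and Ddit4 at 0.26. P2rx3 had 902 in Q84E, 267 in wild-type ATP11A and 291 in parental cells, so like Ccng2 it was high on the Q84E array alone.

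By brightest probe sets the signalling genes above the FOXO factors were mostly close to level, and a list median of a Q84E ratio within 0.14 of 0 turns below 0 with equal array medians. Counts over this and the other lists go by the brightest probe set of each gene, and a gene with 1 level under the floor has a bound only and may be further apart than counted. Of all genes 1.03% were 2-fold higher and 0.319% lower for Q84E over wild-type ATP11A. The shares were 0.561% and 0.888% for wild-type ATP11A over parental, and 1.63% and 0.793% for Q84E over parental cells. At such shares a short list can hold no 2-fold gene, so a count of none is not read as a result about a list. Of 22 listed PI3K, AKT and mTORC2 genes, 18 were compared, none reached 2-fold in any comparison, and the median log2 ratio was 0.0011 for Q84E over wild-type ATP11A, 0.034 for wild-type ATP11A over parental and 0.15 for Q84E over parental cells. The largest for Q84E over wild-type ATP11A among the brighter genes were Mtor, the kinase of both mTOR complexes, at 0.44, Pik3cg, a catalytic PI3K subunit, at 0.44, Pik3r5, a regulatory subunit of that enzyme, at -0.29, and Akt2 at 0.21. Akt1, named after its values were seen, had 2737 in Q84E, 2965 in wild-type ATP11A and 3324 in parental cells. Of 24 genes for proteins that modify, bind or export FOXO factors, 20 were compared and none reached 2-fold in any comparison, with medians of 0.035, -0.027 and 0.019. Sirt2, a deacetylase that acts on FOXO proteins, was the furthest apart, with 528 in Q84E, 574 in wild-type ATP11A and 849 in parental cells. Its signal was low in both DKO lines, at a log2 ratio of -0.69 for Q84E over parental cells and -0.56 for wild-type ATP11A over parental.

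Other genes that FOXO factors are known to induce were also mostly under 2-fold, as were most of all genes compared. Of 20 growth arrest and death genes, 17 were compared and none reached 2-fold in any comparison, with a median log2 ratio of 0.19 for Q84E over wild-type ATP11A, 0.13 for wild-type ATP11A over parental and 0.29 for Q84E over parental cells. For Q84E over parental cells 7 of the 17 were at least 1.5-fold higher, against 7.36% of all genes, and 0 were 1.5-fold lower, against 2.94%. For Q84E over wild-type ATP11A 2 of the 17 were at least 1.5-fold higher, against 5.78%, and 2 were lower, Id2 and Gadd45b, against 1.97%. Gadd45b, a stress gene named after its values were seen, had 180.0 in Q84E, 300.2 in wild-type ATP11A and 186 in parental cells. For Q84E over parental cells, among the brighter genes of the list, Tob1, a relative of Btg1, was 1.59-fold higher and Rb1, the retinoblastoma gene, 1.58-fold. In the same comparison Cdkn2d, an inhibitor of CDK4 and CDK6, was 1.58-fold higher and Gadd45a, a stress and arrest gene, 1.57-fold. Tob1 had 983 in Q84E, 922 in wild-type ATP11A and 619.6 in parental cells, so its step lay between parental cells and both DKO lines. Rb1 had 905 in Q84E, 564 in wild-type ATP11A and 572 in parental cells, a step in Q84E cells alone. Id2, an inhibitor of basic helix-loop-helix factors, went the other way for Q84E over wild-type ATP11A, with 389 in Q84E, 664 in wild-type ATP11A and 455 in parental cells. The classical FOXO targets Cdkn1b and Bcl2l11, which encode the CDK inhibitor p27 and the death protein BIM, had log2 ratios of 0.14 and 0.20 for Q84E over wild-type ATP11A and of -0.044 and 0.049 for Q84E over parental cells. The other probe set of Cdkn1b past the filter gave 0.21 and 0.32, so its direction for Q84E over parental cells depends on the probe set. The other probe sets of Bcl2l11 past the filter lay on both sides of 0 in each of these comparisons. These 2 were named after their values were seen, and those under 0.14 turn below 0 or lie near it with equal array medians.

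Of 20 metabolic and antioxidant FOXO targets, 14 were compared, none reached 2-fold in any comparison, and the medians were 0.11, 0.073 and 0.19 in the same order of comparisons. Bnip3, a mitophagy gene also induced by hypoxia, was the furthest apart among the brighter ones, with 1934 in Q84E, 1115 in wild-type ATP11A and 987 in parental cells. It was 1.73-fold higher for Q84E over wild-type ATP11A. Of 14 homing and survival genes that depend on FOXO1 or KLF2 in T cells, 9 were compared, and 5 of those were above the floor on both arrays in each comparison, so no median is given. For Q84E over wild-type ATP11A 2 of the 9 were at least 1.5-fold lower, against 1.97% of all genes, and 0 were higher, against 5.78%. For wild-type ATP11A over parental 1 was higher, against 3.51%, and 1 lower, against 3.56%. For Q84E over parental cells 0 were higher, against 7.36%, and 1 lower, against 2.94%. Il7r, the interleukin 7 receptor gene, was the 1 gene of all 10 lists that reached 2-fold in any comparison by its brightest probe set and was named for that reason. Its signals of 7.19 in Q84E and 16.3 in wild-type ATP11A cells were below the floor, against 186 in parental cells, which makes it at least 3.35-fold lower for Q84E over parental cells and at least 3.68-fold lower for wild-type ATP11A over parental. Thus Klf2 was higher and Il7r lower in both DKO lines than in parental cells.

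Of 16 BTG, TOB, cyclin G, alpha-arrestin and thioredoxin genes, 14 were compared, with a median log2 ratio of 0.095 for Q84E over wild-type ATP11A. Ccng1, the other cyclin G gene, had 1858 in Q84E, 1909.6 in wild-type ATP11A and 2073 in parental cells by its brightest probe set. Its other probe sets past the filter had 1343, 1208 and 1324, and 990, 839 and 946, in the same order of arrays. As scaled by the authors these were highest in Q84E cells, so the direction of the Ccng1 Q84E ratios depends on the probe set. Arrdc3, an alpha-arrestin like Txnip, had 235, 264 and 278 in the same order, and Txn1, the thioredoxin that TXNIP binds, had 21863, 21897 and 21030. These 3 were named for their kinship to Ccng2 or Txnip, after their values were seen, and none reached 1.5-fold by its brightest probe set. Of the 14 genes, 1 was at least 1.5-fold higher for Q84E over wild-type ATP11A, against 5.78% of all genes, and 0 were lower, against 1.97%. It was Btg2, a relative of Btg1 also named after its values were seen. Btg2 had 325 in Q84E, 194 in wild-type ATP11A and 199 in parental cells. Slc2a1, of the same list, had 1025, 824 and 723 in that order. Of 15 KLF family genes with a named probe set 10 were compared, with a median log2 ratio of 0.38 for Q84E over wild-type ATP11A. It was 0.29 over the 7 of them above the floor on both arrays. The median was -0.0031 for wild-type ATP11A over parental and 0.094 for Q84E over parental cells. Klf13, a transcription factor of lymphocytes, was the furthest apart of the brighter ones, with 1029 in Q84E, 658 in wild-type ATP11A and 626 in parental cells. Its log2 ratio of 0.64 for Q84E over wild-type ATP11A was 0.73 by its other probe set above the floor. Klf7, another member of the family, had 4 probe sets above the floor, which were between 1.64-fold and 2.23-fold higher for Q84E over parental cells.

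The partners of p130 and BCL6 were compared as well. All 12 listed DREAM complex genes were compared and none reached 2-fold. Lin52, a core subunit named after its values were seen, was close to it: its brightest probe set had 49.5 in Q84E and 43.5 in wild-type ATP11A cells, both under the floor, against 99.8 in parental cells, at least 1.97-fold lower for wild-type ATP11A over parental. Its other probe set past the filter was highest in wild-type ATP11A cells, at 74.9. Lin9, another core subunit, had 1022 in Q84E, 1076 in wild-type ATP11A and 661 in parental cells, and was thus high in both DKO lines. Of 12 BCL6 corepressors and relatives 8 were compared, none reached 2-fold, and Bcor, the BCL6 corepressor, was highest in Q84E cells at 885, against 680 in wild-type ATP11A and 677 in parental cells.

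Genes of cell cycle entry and proliferation were close to level as a list. Of 30 listed, 29 were compared, none reached 2-fold in any comparison, and the median log2 ratio was 0.053 for Q84E over wild-type ATP11A, 0.025 for wild-type ATP11A over parental and 0.14 for Q84E over parental cells. The medians of the Q84E ratios turn below 0 with equal array medians. Mki67, the proliferation marker, had 10579 in Q84E, 7847 in wild-type ATP11A and 7570.1 in parental cells. Its single probe set past the filter was highest in Q84E cells. The 2 probe sets of Ccne1, the cyclin that takes cells into S phase, ran in opposite directions. The brightest, a less specific one, had 2241 in Q84E, 1895 in wild-type ATP11A and 1432 in parental cells, 1.56-fold higher for Q84E over parental cells. The other had 1176, 1650 and 1945 in the same order, 1.65-fold lower for Q84E over parental cells, so no direction is given for Ccne1.

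**Figure D4:**
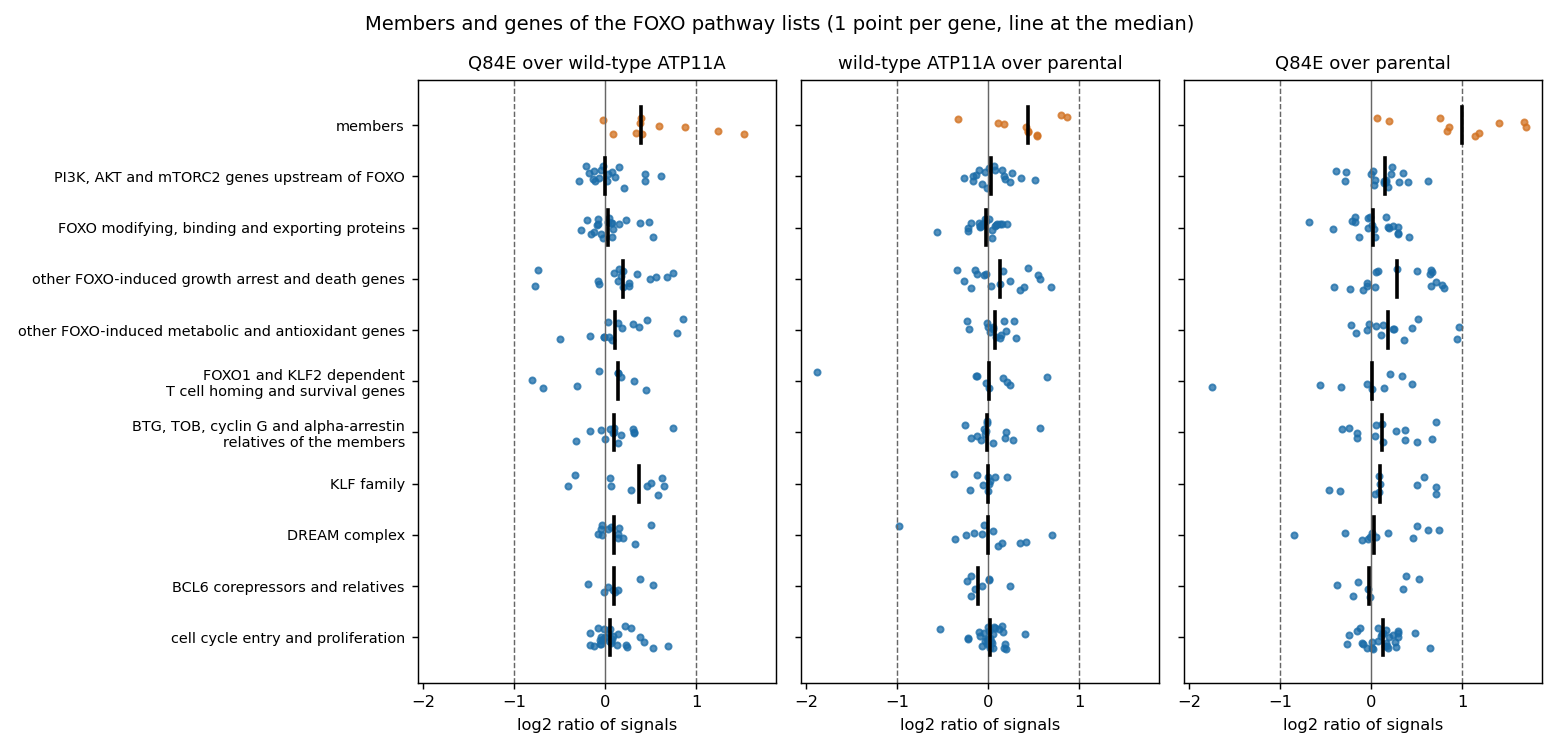
Log2 ratio of signals (horizontal axis) for the 10 member genes (orange) and the compared genes of 10 pathway lists (blue), with 1 point per gene by its brightest probe set and a black line at each median. Dashed lines mark 2-fold; Il7r, at left in both comparisons with parental cells, is the only listed gene outside the members that lies beyond them.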

How the data were processed

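Each deposited value is the intensity of a probe set, in linear units, which the authors obtained by MAS5 according to the submitters' processing notes. The sources used here give neither its version nor its settings. Labelling began from 250 ng of total RNA, per the labels' protocols. The 2% trimmed mean was 500.0 on every array, so MAS5 scaling was kept. Probe sets were named from the platform's annotation, 34958 with exactly 1 symbol, and a gene was read by its brightest probe set, by the mean of log2 signals. The filter kept 11596 genes that reached the 50th percentile on at least 1 array; lower signals were set to that percentile. A ratio with 1 level at that floor is a bound. Genes were counted by size, 2-fold or 1.5-fold; with 1 array per group no test was possible. The genes, lists and alternatives were chosen with earlier results of these data known. All 10 genes were named with all probe sets. A gene named from a list was among the 4 with the largest ratio of a comparison and past the 75th percentile, or was named as stated. Not all genes that met this rule were named. The 7 alternatives were quantile normalization, equal array medians, a lower floor, a stricter filter, a pseudocount of 50 without a floor, the mean of all probe sets, and no probe sets marked less specific. Python 3.11.15, numpy 2.4.6 and pandas 2.3.3 were used, and the calling step was tested on simulated data. That simulation had the same noise at every signal level and changes only in genes past the 75th percentile, so it does not cover calls in dimmer genes.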

Additional observations from a re-analysis of the deposited data

How the results depend on the processing

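No paired analysis was possible because each group is 1 array. Among the 10 genes, the number at least 2-fold apart for Q84E over wild-type ATP11A was 2 under 6 of 7 alternatives and 1 without less specific probe sets, where Foxo3 was read by its level probe set; with the mean of all probe sets the 2 were Ccng2 and Txnip. For Q84E over parental cells it was 2, in place of 5, with the mean of all probe sets and without less specific probe sets. The median log2 ratio of the 10 genes became 0.60 for Q84E over wild-type ATP11A with the filter at the 75th percentile, which left 7 of them. Without less specific probe sets, which left 9, it became 0.079 for wild-type ATP11A over parental and 0.64 for Q84E over parental cells. Of all genes compared, those at least 2-fold apart numbered 1777, 1712 and 1974 with floor and filter at the 25th percentile and 34, 58 and 98 with the filter at the 75th, for Q84E over wild-type ATP11A, wild-type ATP11A over parental and Q84E over parental cells. With quantile normalization 68 genes were higher and 64 lower for Q84E over wild-type ATP11A, against 119 and 37 as deposited, and 119 and 118 for Q84E over parental cells, against 189 and 92. With equal array medians they were 65 and 66, and 111 and 123. Without less specific probe sets the log2 ratio of wild-type ATP11A over parental cells became -0.030 for Foxo3 and -0.32 for Pik3ip1, and with the mean of all probe sets it became -0.044 for Foxo1. Fewer probe sets or genes enter the alternatives that filter them; for the others the cause was not tested. No array could be left out, since each is its group. With a pseudocount of 50 the log2 ratio of Klf2 for wild-type ATP11A over parental cells became 0.69, and Pik3ip1 became 0.57 for that comparison and 0.88 for Q84E over parental cells.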
